A study of Mus musculus with 6 samples.

Results

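The 41 genes described here build and maintain the contacts between epithelial cells. They comprise 12 transmembrane proteins of the tight junction, 3 proteins of the plaque beneath it, 4 polarity proteins, 4 adherens junction genes, 9 desmosome genes, 6 regulators of epithelial identity and 3 epithelial surface proteins. They were listed by symbol, and every probe set that the annotation of the array pairs with exactly 1 of these symbols was read. All 41 had a probe set, among 18194 genes with one, and all 41 passed the intensity filter applied to the whole array. Each gene was read from its brightest probe set, and a difference in intensity between genes is not read as a difference in RNA amount.

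Luminal mammary epithelial cells (luminal MECs) that had switched on YFP came from 2 groups of females, 3 of the genotype MMTV-Cre;Runx1L/L;R26Y (Runx1-null) and 3 controls of the genotype MMTV-Cre;Runx1+/+;R26Y (Runx1-WT). All were adult virgins of a mixed B6/129/FVB background, with 1 array per mouse (Affymetrix Mouse Genome 430 2.0). Every mouse of both groups carried the Cre transgene, driven by the mouse mammary tumor virus promoter, and the R26Y reporter, in which Cre removes a stop cassette in front of YFP. Runx1L is a conditional allele with an exon between loxP sites. YFP reports recombination at the reporter and not at Runx1, so a YFP+ cell of the Runx1-null group can still hold an intact Runx1L allele. The cells were gated as Lin-CD24+CD29lo, and Cd24a is the gene of the sorted surface protein CD24. The comparison asks how the genes of epithelial junctions and polarity stood in luminal MECs after conditional deletion of Runx1, which encodes a DNA-binding transcription factor of the RUNX family.

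In a luminal duct, tight junctions seal the space between neighbouring cells next to the lumen and keep apical and basolateral membrane proteins apart. Claudins form the strands, occludin and the MARVEL proteins sit in the same strands, and zonula occludens proteins tie them to actin. Below them, E-cadherin and its catenins form the adherens junction, and desmosomes anchor keratin filaments through cadherins, plakoglobin, plakophilins and plakins. The PAR and Crumbs complexes set the position of these belts, whereas ESRP splicing factors and GRHL and OVOL transcription factors are known to maintain the epithelial state.

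The arrays did not separate the genotypes as a whole. Along the first principal component, with 51.2% of the variance, the arrays lay between -39.7 and 44.1 in Runx1-null mice and between -38.7 and 42.2 in Runx1-WT mice. The brightest Runx1 probe set read 4082, 3855 and 2015 in Runx1-WT mice 1 to 3 and 3473, 4820 and 2277 in Runx1-null mice 1 to 3. None of the 6 Runx1 probe sets kept the genotypes apart. Where they lie relative to the floxed exon was not examined, and their values are no check of the deletion. Runx1-null mouse 3 stood out in signs of RNA quality. Its log2 difference between 3′ and 5′ control probe sets was 0.61 for Gapdh and 0.74 for actin, against 0.46 to 0.55 and 0.44 to 0.52 in the other mice, and 22.3% of its probe sets fell below the intensity floor, against 18.8% to 20.6%. The 4 luminal keratins Krt7, Krt8, Krt18 and Krt19 were bright in all mice, from 4709 to 14017. Nothing in the sources says which mice shared a litter, a cell preparation or an array batch.

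No junction or polarity gene passed the test for a difference between Runx1-null and Runx1-WT luminal MECs. At a Benjamini-Hochberg adjusted p under 0.05 in limma, 0 of 41 members were called, where 0% of the 12152 tested genes were called. At an unadjusted p under 0.05 the count was also 0 of 41, against 1.93% of tested genes, and the methods' t-test likewise gave 0 members at that unadjusted threshold. On the brightest probe set the 2 genotypes overlapped in every member, whereas 5.55% of tested genes did not overlap. Log2 differences, given throughout as Runx1-null minus Runx1-WT, ran from -0.25 (Cldn8) to 0.36 (Cldn23 and Pard6b). They were above 0 in 28 members and below 0 in 13, with a median of 0.06, whereas 44.6% of all tested genes were above 0 and their median was -0.02. After scaling each array to the same median these medians were 0.15 and 0.07, and the differences of Tjp1, Pard3, Cdh1, Dsp, Cd24a and Muc1 turned from below to above 0. Values per mouse below are linear array intensities, listed for mice 1 to 3 of each genotype, and a floor and a filter on low intensities were applied before the test.

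Most of the differences were also bounded narrowly. In 26 of the 41 members (63.4%) the 95% interval of the log2 difference lay entirely within 0.5 of 0, as it did in 25.6% of tested genes. An absolute log2 difference over 0.5 was found in 0 of the 41 members and in 960 of the 12152 tested genes, without matching for intensity. The median spread between mice of 1 genotype was 0.16 on the log2 scale in the members and 0.27 over all tested genes, a contrast that was not matched for intensity. For the remaining 15 members the interval reached beyond 0.5, and for these the arrays leave larger differences unresolved. Arrays were also simulated with the spread of each tested gene, independent noise, and changes placed in genes drawn from all 12152. There the test recovered 31% of 2-fold changes and 76% of 4-fold changes. These shares describe the whole array and were not computed for the members.

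**Figure D1:**
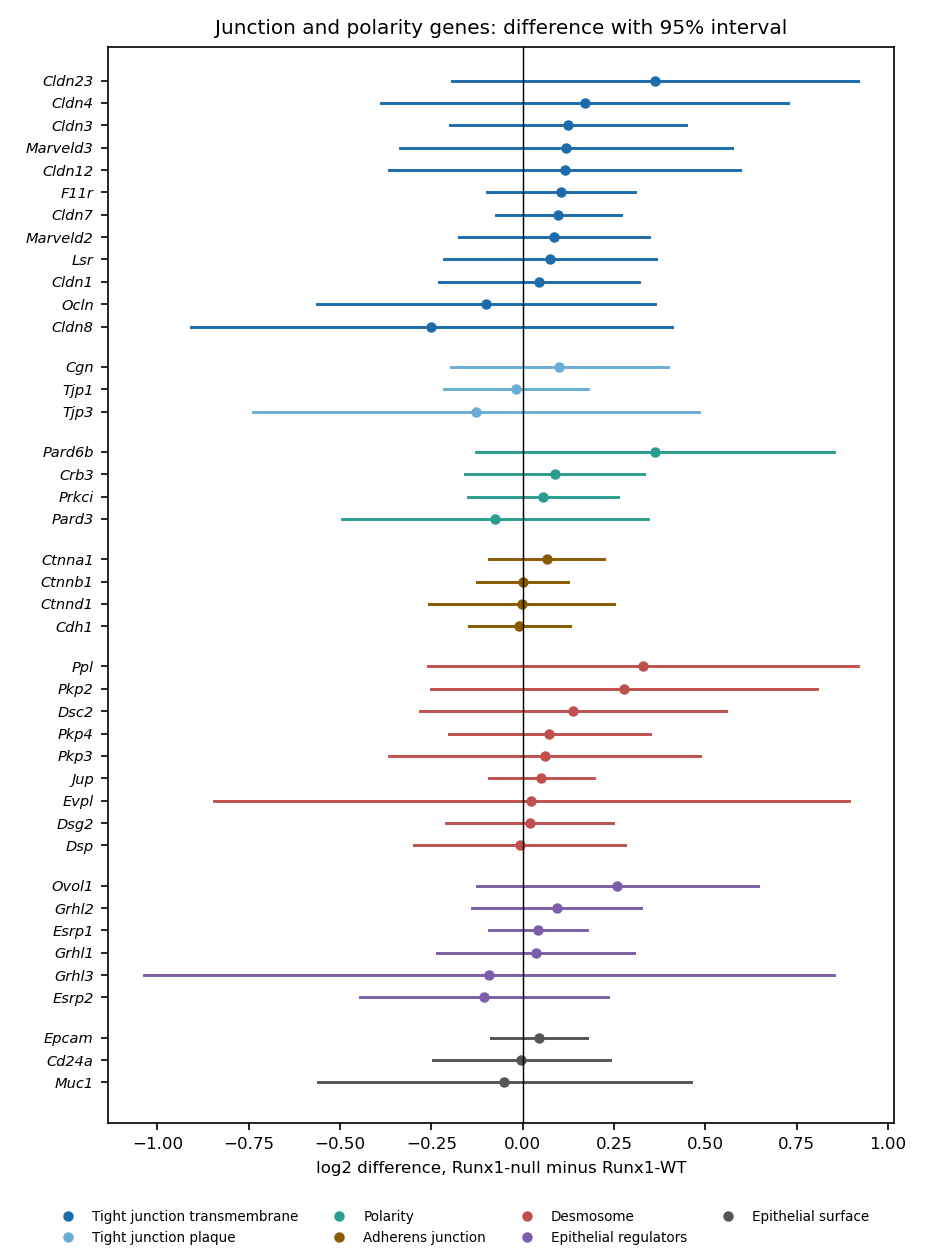
The horizontal axis gives the log2 difference, Runx1-null minus Runx1-WT, for each of the 41 genes (points), with its 95% interval from limma (lines), n = 3 mice per genotype, coloured by role. Every interval includes 0, from the narrow ones of Cdh1, Ctnnb1 and Esrp1 to those of Evpl and Grhl3, which reach beyond 0.8 in both directions. The intervals of Cldn23, Pard6b, Ppl, Pkp2 and Cldn8 reach beyond 0.8 on a single side.

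Repressors of the epithelial state such as SNAI1 and ZEB proteins are known to bind promoters of some epithelial genes, through the E-box word CAGGTG. Promoter windows of 300 bases, from 250 before to 50 after the annotated start, were taken from RefSeq (GRCm38.p6). The first listed window of each gene was used, and 25 of the 41 members were matched by symbol. The E-box word or its reverse complement stood in 13 of these 25 windows (52%), against 20% of 27025 gene windows. Those windows were not matched for base composition. The RUNX word TGTGGT, or its variant form with the letters TGCGGT, also searched on both strands, stood in 5 of 25 (20%) against 22.5%, and the GRHL word AACCGGTT in 0 of 25 against 0.152%. The windows below belong to members whose values follow, show where the words lie in relation to the start, and are written 5′ to 3′ on the strand of the gene with the word in capitals. None of the words shown overlaps another, and a match is a description of letters, not a bound site.
Cldn3 (chr5:134986233-134986262, plus strand): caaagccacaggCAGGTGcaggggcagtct
Cldn4 (chr5:134946931-134946960, minus strand): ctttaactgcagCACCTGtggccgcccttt
Ocln (chr13:100552694-100552723, minus strand): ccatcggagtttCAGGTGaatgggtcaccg
Dsp (chr13:38151285-38151314, plus strand): gaagaagccgacCAGGTGtggcctgggcgc
Epcam (chr17:87635948-87635977, plus strand): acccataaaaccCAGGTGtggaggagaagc
Pard6b, upstream word (chr2:168080851-168080880, plus strand): acgccgcgggcgCAGGTGcgcgcttcccat
Pard6b, downstream word (chr2:168080906-168080935, plus strand): gcgccgaagctgCAGGTGagcgcgcgcacg
Tjp3, RUNX word (chr10:81291607-81291636, minus strand): gtggctaaaaggTGTGGTatggcctacaat
Crb3, RUNX word (chr17:57062092-57062121, plus strand): atttccgccctcTGCGGTgctccgggtcgc
Counted in bases from the annotated start, the E-box words shown began at -14 in Cldn4 and -19 in Epcam, and at 3 in Dsp, 7 in Ocln and 31 in Cldn3. Cldn4 and Epcam each held a further E-box word that is not shown, at 11 and at -187, and the windows of Tjp3 and Crb3 held E-box words too. The words of Pard6b began at -141 and -86, and the RUNX words of Tjp3 and Crb3 at -43 and -97.

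Among the claudins, the strand-forming proteins of tight junctions, no member kept the genotypes apart, and several differences rested on single mice. Cldn7 was at 7307, 6599 and 7783 in the Runx1-WT against 7629, 7673 and 7851 in the Runx1-null mice (log2 difference, 0.10 ± 0.07 SE, 95% interval -0.07 to 0.27; SE, standard error). The highest mouse was Runx1-null mouse 3 and the lowest Runx1-WT mouse 2, with Runx1-WT mouse 3 between the Runx1-null values. Cldn3 was at 4273, 3792 and 4919 in the Runx1-WT against 4898, 5180.1 and 4057 in the Runx1-null mice (log2 difference, 0.12 ± 0.14 SE). Cldn4 read 3619, 4579 and 2449 in the Runx1-WT against 3471, 4539 and 3667 in the Runx1-null mice (log2 difference, 0.17 ± 0.24 SE). Mouse 2 of each genotype was the highest and Runx1-WT mouse 3 was the lowest of all, and without that mouse the log2 difference of Cldn4 was -0.07. Cldn1 and Cldn12 had log2 differences of 0.04 ± 0.12 (SE) and 0.11 ± 0.20 (SE).

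Cldn23 and Cldn8 held the ends of the range. Cldn23 read 1512, 1497 and 1636 in Runx1-WT mice, a mean of 1548 ± 76.1 (SD, n = 3), and 2596, 2135 and 1419 in Runx1-null mice, a mean of 2049.6 ± 593 (SD, n = 3). Runx1-null mice 1 and 2 lay above every Runx1-WT mouse and Runx1-null mouse 3 lay below every one. The log2 difference was 0.36 ± 0.23 (SE; exact permutation test, two-sided, p = 0.4), and 0.1 is the smallest p that 3 mice against 3 can give. Cldn8 showed the opposite order, at 3413, 3289.6 and 3087 in the Runx1-WT against 1843, 2679 and 4168 in the Runx1-null mice (log2 difference, -0.25 ± 0.28 SE; exact permutation test, two-sided, p = 0.6). Here Runx1-null mice 1 and 2 were the lowest of the 6 and Runx1-null mouse 3 the highest.

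The other strand proteins overlapped as well. Ocln (occludin) was at 4765, 4867 and 3535 in the Runx1-WT against 4370.1, 4817 and 3158 in the Runx1-null mice, a log2 difference of -0.10 ± 0.20 (SE). Mouse 3 was the lowest of its genotype in both groups. Marveld2 (tricellulin, found where 3 cells meet) and Marveld3 had log2 differences of 0.09 ± 0.11 (SE) and 0.12 ± 0.19 (SE). F11r, the junctional adhesion molecule JAM-A, and Lsr (angulin-1), which recruits tricellulin, had log2 differences of 0.11 ± 0.09 (SE) and 0.07 ± 0.12 (SE). Over the 12 transmembrane members 10 were above 0 and 2 below, with a median log2 difference of 0.10.

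The plaque proteins that link these strands to actin had a median log2 difference of -0.02, with 1 of 3 above 0. Tjp1 (ZO-1) varied little, at 5704, 5688 and 5154 in the Runx1-WT against 5448, 5805 and 5082 in the Runx1-null mice (log2 difference, -0.02 ± 0.08 SE, 95% interval -0.22 to 0.18). Tjp3 (ZO-3) was measured less tightly, at 613, 490.2 and 875 in the Runx1-WT against 612, 647 and 509.7 in the Runx1-null mice (log2 difference, -0.13 ± 0.26 SE). Runx1-WT mouse 3 was the highest of the 6, and without it the log2 difference of Tjp3 was 0.10. Cgn (cingulin), which binds the zonula occludens proteins, read 2385, 2060.2 and 2189.6 in the Runx1-WT against 2385, 2484 and 2238 in the Runx1-null mice (log2 difference, 0.10 ± 0.13 SE).

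Of the polarity genes, Pard6b was highest in the same pair of mice as Cldn23. Pard6b, the adaptor that joins atypical protein kinase C to PARD3 and CDC42, read 2597, 2423 and 3058 in Runx1-WT mice (2693 ± 328, SD, n = 3) and 4034, 3991 and 2539 in Runx1-null mice (3521 ± 851, SD, n = 3). Runx1-null mice 1 and 2 exceeded all Runx1-WT mice, and Runx1-null mouse 3 lay within their range. The log2 difference was 0.36 ± 0.21 (SE, 95% interval -0.13 to 0.85; exact permutation test, two-sided, p = 0.3). A second probe set of Pard6b gave 2235, 1936 and 2568 in the Runx1-WT against 3353, 3382 and 2251 in the Runx1-null mice, again highest in Runx1-null mice 1 and 2, with a log2 difference of 0.40. Pard3, the scaffold of the complex, was at 1196, 953 and 1079.7 in the Runx1-WT against 922, 1138 and 1003 in the Runx1-null mice (log2 difference, -0.08 ± 0.18 SE). Prkci, the atypical protein kinase C, and Crb3, the Crumbs protein of epithelia, had log2 differences of 0.06 ± 0.09 (SE) and 0.09 ± 0.10 (SE). The 4 polarity genes had a median log2 difference of 0.07.

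**Figure D2:**
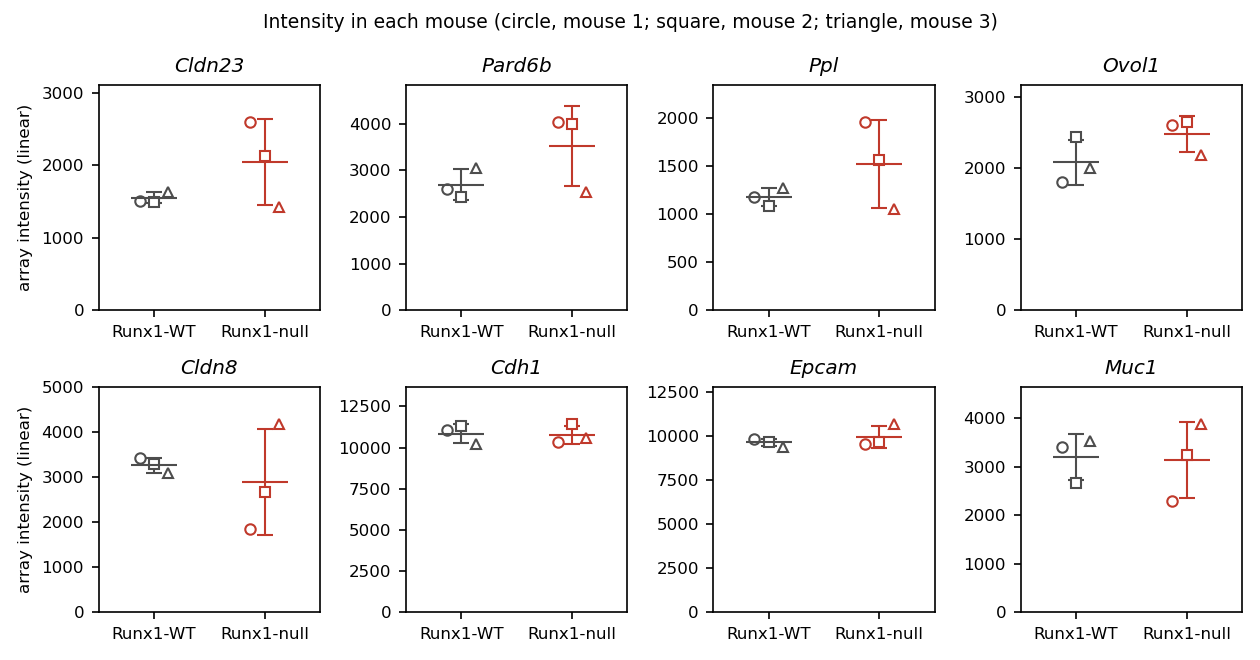
Array intensity (linear scale) of 8 genes in each of the 6 mice, with the mean (horizontal line) and SD (bars) of the 3 mice per genotype and a separate vertical axis per gene. Runx1-null mouse 3 (triangle) lies apart from Runx1-null mice 1 and 2 in Cldn23, Pard6b, Ppl and Cldn8, whereas the 6 mice lie close together in Cdh1 and Epcam.

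The adherens junction genes had narrow intervals. Cdh1 (E-cadherin) was at 11048, 11285 and 10199.9 in the Runx1-WT against 10342, 11407 and 10559 in the Runx1-null mice, and its log2 difference was -0.01 ± 0.06 (SE, 95% interval -0.15 to 0.13). The lowest and the highest values of Cdh1 came from different genotypes, and the Runx1-null values lay among those of Runx1-WT mice but for mouse 2. Ctnnb1 (β-catenin), which binds the tail of E-cadherin and also acts in WNT signalling, was at 10142, 9354 and 10035 in the Runx1-WT against 9438, 9902 and 10182 in the Runx1-null mice (log2 difference, 0.00 ± 0.05 SE). Ctnna1 (α-catenin), the link to actin, read 6316, 6327 and 6024 in the Runx1-WT against 6364, 6273 and 6904 in the Runx1-null mice (log2 difference, 0.07 ± 0.07 SE). Ctnnd1 (p120-catenin), which stabilizes cadherin at the membrane, had Runx1-WT values of 5289 to 6534 and Runx1-null values of 5397 to 6503. In all 4 genes the 95% interval lay within 0.5 of 0, so a log2 difference beyond 0.5 in either direction was outside it.

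Of the 9 desmosome genes, Ppl, Pkp2 and Dsg2 had their highest values in Runx1-null mice 1 and 2. The others did not share one order of mice. Jup (plakoglobin, shared with the adherens junction) spanned 6379 to 6848 in the Runx1-WT group and 6799 to 7158 in the Runx1-null group (log2 difference, 0.05 ± 0.06 SE). Dsp (desmoplakin), which attaches keratin filaments, was at 6969, 6892 and 5274 in the Runx1-WT against 6241, 6745 and 5908 in the Runx1-null mice (log2 difference, -0.01 ± 0.12 SE), with mouse 3 the lowest of each genotype. The desmosomal cadherins Dsg2 and Dsc2 had log2 differences of 0.02 ± 0.10 (SE) and 0.14 ± 0.18 (SE). Ppl (periplakin), a plakin of the desmosomal plaque, was at 1178, 1086 and 1272 in Runx1-WT mice (1179 ± 92.9, SD, n = 3) and 1959, 1564 and 1051 in Runx1-null mice (1525 ± 455, SD, n = 3). Its 2 highest values were those of Runx1-null mice 1 and 2 and its lowest that of Runx1-null mouse 3 (log2 difference, 0.33 ± 0.25 SE; exact permutation test, two-sided, p = 0.4). Pkp2 (plakophilin 2) read 1750.1, 1963 and 1350.2 in the Runx1-WT against 2377, 2206 and 1573 in the Runx1-null mice (log2 difference, 0.28 ± 0.22 SE), and here mouse 3 was the lowest of each genotype.

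Among the remaining desmosome members, Pkp3 and Pkp4 had log2 differences of 0.06 ± 0.18 (SE) and 0.07 ± 0.12 (SE), and were highest in Runx1-null mouse 1 and Runx1-null mouse 3. Evpl (envoplakin, the partner of periplakin) was at 423, 428 and 182 in the Runx1-WT against 362, 334 and 287 in the Runx1-null mice, with a log2 difference of 0.02 ± 0.37 (SE), too wide to read a direction from. Over the 9 genes 8 lay above 0, with a median log2 difference of 0.06.

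The regulators of the epithelial state ranged from Esrp1, with a narrow interval, to Grhl3, with the widest of the 41. Esrp1, which directs epithelial splicing, was at 7170.5, 6755 and 7185 in the Runx1-WT against 7359, 7321 and 7046 in the Runx1-null mice (log2 difference, 0.04 ± 0.06 SE, 95% interval -0.09 to 0.18). Its relative Esrp2 was at 2796, 2429.7 and 2672 in the Runx1-WT against 2711, 2558 and 2097 in the Runx1-null mice (log2 difference, -0.11 ± 0.14 SE), and a second probe set gave 0.12. Grhl2, a transcription factor that maintains junction genes, read 3372, 3136 and 3009 in the Runx1-WT against 3389, 3398 and 3348 in the Runx1-null mice (log2 difference, 0.09 ± 0.10 SE; exact permutation test, two-sided, p = 0.2). On this probe set the 3 Runx1-null values of Grhl2 were almost the same, and only Runx1-WT mouse 1 reached them. Dimmer probe sets of Grhl2 gave log2 differences of -0.14, -0.23 and -0.06. Ovol1, a zinc-finger repressor of mesenchymal genes, read 1806, 2428 and 1999 in the Runx1-WT against 2601, 2643 and 2181 in the Runx1-null mice (log2 difference, 0.26 ± 0.16 SE; exact permutation test, two-sided, p = 0.2). Runx1-null mouse 3 was below Runx1-WT mouse 2, and the other Runx1-null mice were above all Runx1-WT mice. Grhl1 had a log2 difference of 0.04 ± 0.11 (SE). Grhl3, the dimmest member, was at 73.6, 81.7 and 165 in the Runx1-WT against 115, 91.9 and 77.5 in the Runx1-null mice, a log2 difference of -0.09 ± 0.40 (SE).

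The surface proteins overlapped, and in each Runx1-null mouse 1 was below and Runx1-null mouse 3 above most mice. Epcam, an adhesion protein of epithelia that binds claudin-7, was at 9843, 9672 and 9411 in the Runx1-WT against 9557, 9639 and 10667 in the Runx1-null mice (log2 difference, 0.04 ± 0.06 SE). Cd24a was at 12580.4, 12664 and 11265 in the Runx1-WT against 10429.9, 12417 and 13727 in the Runx1-null mice (log2 difference, 0.00 ± 0.10 SE), and its protein was a sorting marker. Muc1, the apical mucin of luminal cells, was at 3409, 2656 and 3533 in the Runx1-WT against 2299, 3241 and 3867 in the Runx1-null mice (log2 difference, -0.05 ± 0.22 SE).

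The Runx1-null mice differed among themselves across the list. The mean log2 intensity of the 41 members was 11.65, 11.60 and 11.58 in the Runx1-WT against 11.70, 11.75 and 11.57 in the Runx1-null mice. Runx1-null mouse 2 lay above the 6-mouse mean in 36 of 41 members, with a median deviation of 0.09 on the log2 scale, whereas Runx1-null mouse 3 lay above it in 14, with a median of -0.09. The number for Runx1-null mouse 1 was 25 (47.5% of tested genes). For Runx1-WT mice 1 to 3 the numbers were 26 (61.4%), 15 (40.8%) and 16 (57.1%). Over all tested genes the same medians were 0.04 in Runx1-null mouse 2 and -0.03 in Runx1-null mouse 3, and 59.6% and 44.9% of genes lay above their mean. Runx1-null mouse 3 was the lowest of the 6 mice in 12 members and the highest in 11, whereas it was the lowest in 24.3% and the highest in 17.4% of tested genes. Runx1-WT mouse 3 was the lowest in 12 members (13.1% of tested genes) and Runx1-WT mouse 2 in 11 (25.1%). Runx1-null mouse 2 was the highest in 11 members (11.7% of tested genes).

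**Figure D3:**
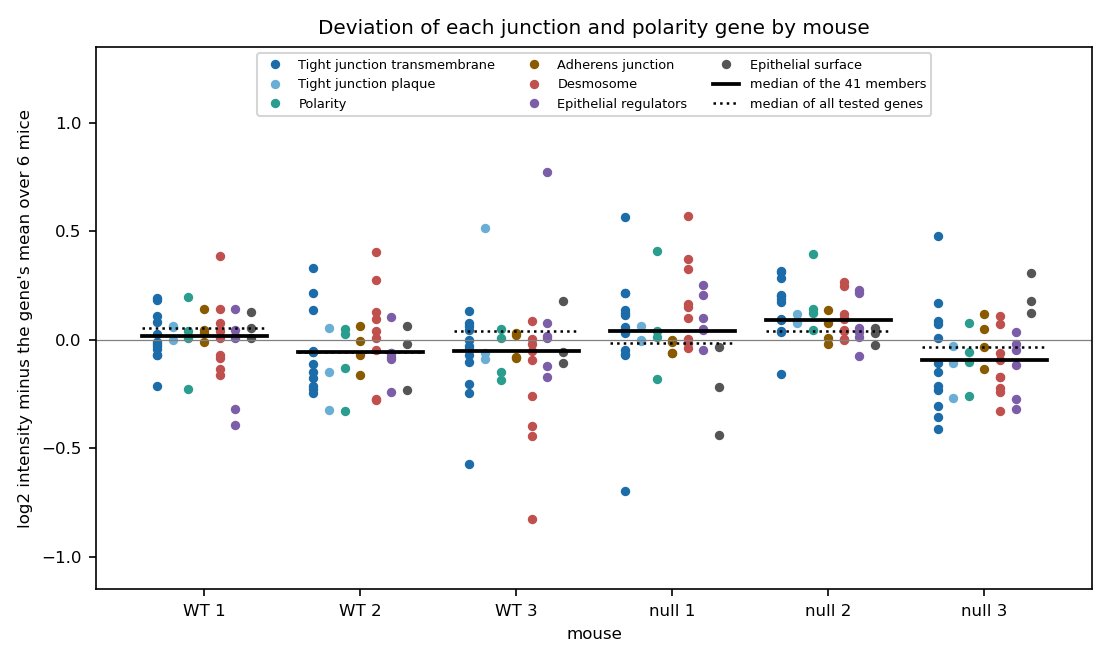
The vertical axis gives the log2 intensity of each of the 41 genes minus its mean over the 6 mice, by mouse, with 1 point per gene coloured by role. Solid lines mark the median of the members and dotted lines that of all 12152 tested genes, and the members' median is highest in Runx1-null mouse 2 (0.09) and lowest in Runx1-null mouse 3 (-0.09).

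Leaving out each mouse in turn moved the count of members whose groups did not overlap. Without Runx1-null mouse 3, 13 of 41 members (31.7%) were higher in the pair of remaining Runx1-null mice than in any Runx1-WT mouse, against 9.69% of tested genes, and 1 member was lower, against 10.2%. Of the 41, 34 then had a log2 difference above 0, against 49.9% of tested genes. The 13 were Cldn1, Cldn12, Cldn23, Marveld2, Marveld3, Pard6b, Prkci, Dsg2, Pkp2, Ppl, Esrp1, Grhl2 and Ovol1, and the lower one was Cldn8. In 7 of the 13, Runx1-null mouse 3 was the lowest of all 6 mice. Limma then called 0 members at an adjusted p under 0.05 and 5 at an unadjusted p under 0.05 (Cldn1, Cldn23, Pard6b and Ppl higher, Cldn8 lower), where 4.76% of tested genes passed that unadjusted threshold (2.12% higher and 2.64% lower). The log2 differences became 0.61 for Cldn23, 0.58 for Pard6b, 0.57 for Ppl and -0.55 for Cldn8, with an adjusted p of 0.93 from limma for each. Runx1-null mouse 3 was singled out after its values were seen. It was also the mouse with the largest 3′ to 5′ differences of both control genes and the highest share of probe sets under the floor, and the part of RNA quality in these counts was not tested.

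With any other mouse left out, at most 3 members were higher in the Runx1-null mice. With Runx1-WT mouse 1 left out, 2 members were higher in all Runx1-null mice (3.64% of tested genes) and 0 lower (4.28%). The same counts were 3 (4.02%) and 0 (9.87%) with Runx1-WT mouse 2 left out, and 1 (12.4%) and 2 (13.3%) with Runx1-WT mouse 3 left out. They were 2 (4.98%) and 0 (5.98%) with Runx1-null mouse 1 left out, and 1 (3.78%) and 0 (8.2%) with Runx1-null mouse 2 left out. At an unadjusted p under 0.05 limma gave 0 members in each of these 5 fits, where it gave 0.642%, 1.81%, 6.73%, 1.66% and 1.63% of tested genes in the order named. The animal numbers in the titles place mice 1 and 2 of each genotype in a lower range and mouse 3 of each in an upper range. Within the lower range, 2 mice against 2, 16 members were higher in both Runx1-null mice (26.1% of tested genes) and 6 lower (24.5%). There Cldn23, Pard6b and Ppl had log2 differences of 0.65, 0.68 and 0.63, and in the upper range, with 1 mouse per genotype, -0.21, -0.27 and -0.28. The median of the 41 members was 0.07 in the lower and 0.01 in the upper range, against 0.01 and -0.09 over all tested genes. What the numbers stand for is not stated, and the range could not be told apart from the individual mice.

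Markers of basal cells differed widely between mice, and in bulk RNA a smaller share of a cell type and less RNA per cell cannot be told apart. Of 8 basal and myoepithelial markers 6 passed the filter, and their mean log2 intensity was 9.60, 9.32 and 10.17 in the Runx1-WT against 10.17, 10.61 and 9.17 in the Runx1-null mice. Trp63, a defining factor of basal cells, read 1179, 959 and 844 in the Runx1-WT against 1832, 3006 and 965 in the Runx1-null mice. Krt14 was at 1598, 1125 and 2348 in the Runx1-WT against 2292, 2845 and 787 in the Runx1-null mice, and Oxtr at 517, 386 and 1798 against 4268, 2395 and 423. The list mean was thus highest in Runx1-null mouse 2 and lowest in Runx1-null mouse 3, and Runx1-WT mouse 3 was as high as Runx1-null mouse 1. In Trp63 and Oxtr Runx1-null mice 1 and 2 were the highest of the 6, as in Cldn23, Pard6b and Ppl, and in Krt14 Runx1-WT mouse 3 lay between them. The other markers had other orders. Krt5 was at 146, 209.9 and 263 in the Runx1-WT against 201, 628 and 123 in the Runx1-null mice. Acta2 read 1348, 1005 and 1924 against 1163, 1398 and 1175 (log2 difference, -0.15), and Mylk 1146, 789 and 1322 against 562, 796 and 780.5 (log2 difference, -0.59), both highest in Runx1-WT mouse 3. The dimmest markers, Myh11 and Cnn1, were below the filter. The part of these cells in the result was not tested.

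Markers of other cell types also differed between mice. All 7 fibroblast markers had log2 differences below 0, with a median of -0.58, and their mean log2 intensity was 8.96 in Runx1-null mouse 3, the lowest of the 6 mice, against 10.21 to 10.42 in Runx1-WT mice. The 4 leukocyte markers tested were also below 0 (median -0.50), with a mean of 9.47 in Runx1-WT mouse 3 against 6.53 to 7.41 in the others, although the sort removed CD45+ cells, and Ptprc, the gene of CD45, read 205 in that mouse against 18.3 to 47.4. Of the endothelial markers 5 of 5 were below 0 (median -0.70), with a mean of 7.15 to 7.67 in Runx1-WT and 6.49 to 7.05 in Runx1-null mice. The 6 mature luminal markers tested had a median log2 difference of -0.24 with 5 below 0, the 5 progenitor markers 0.18 with 4 above, and the 4 luminal keratins 0.08 with 4 above. At an adjusted p under 0.05 limma called 0 genes of each of these lists, and at an unadjusted p under 0.05 it gave 3 of the 6 mature luminal markers and 1 of the 5 endothelial markers, all lower, as for 1.28% of tested genes in that direction. The part of these cells in the members' values was not tested.

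Different probe sets of a member shared a sign in most genes but could vary in size, as in Dsc2, from 0.14 to 0.44. The 41 genes had 89 probe sets, 26 genes had several, and in 24 at least 2 were above the intensity filter. In 16 of these 24 all such probe sets had log2 differences of the same sign. The 4 probe sets of Cldn3 lay between 0.12 and 0.13 and those of Crb3 between 0.07 and 0.09. Signs differed in Ctnna1, Ctnnd1, Dsg2, Dsp, Esrp2, Grhl2, Marveld3 and Pkp2. For Ctnna1 the 3 probe sets ran from -0.33 to 0.07, and the lowest belonged to a dimmer probe set that ranged from 108 to 778 over the 6 mice. The 4 probe sets of Pkp2 ran from -0.18 to 0.33. The one at 0.33, dimmer than the brightest, read 672, 700 and 601 in the Runx1-WT against 818, 775 and 880 in the Runx1-null mice. There the genotypes did not overlap, as for 2.08% of tested genes in that direction on their brightest probe sets, and Runx1-null mouse 3 was the highest. The second probe set of Ovol1 gave 403, 503 and 356 in the Runx1-WT against 777, 937 and 329 in the Runx1-null mice, a log2 difference of 0.58 against 0.26 for the brighter one. In both probe sets Runx1-null mice 1 and 2 were the highest, and in the dimmer one Runx1-null mouse 3 was the lowest of all.

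**Figure D4:**
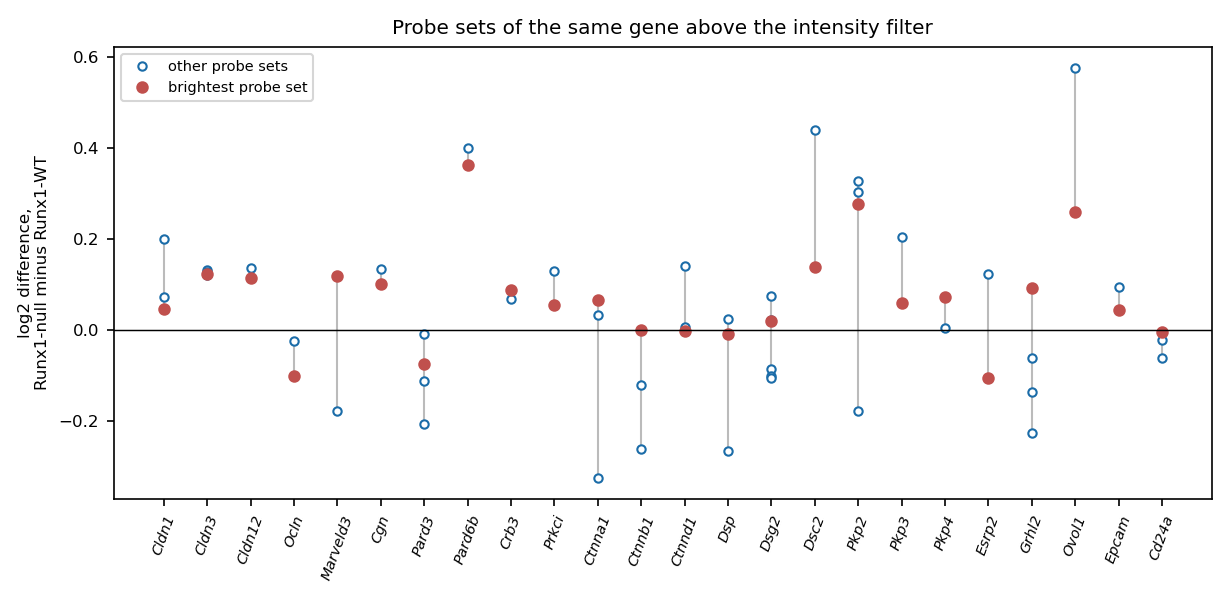
Each column holds 1 of the 24 genes with at least 2 probe sets above the intensity filter, and the vertical axis gives the log2 difference, Runx1-null minus Runx1-WT, of every such probe set (filled, the brightest; open, the others). The sign is shared in 16 genes, and all values of Cldn3 and Crb3 lie close together.

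A wider list of 53 junction, polarity and epithelial genes, none of them among the 41, likewise held no gene past the adjusted threshold but was measured with more spread. Of these 51 had a probe set and 44 were tested, 27 above 0 and 17 below, with a median log2 difference of 0.04. The 95% interval lay within 0.5 of 0 in 13 of the 44 (29.5%), 6 had an absolute log2 difference over 0.5, and the median spread between mice of 1 genotype was 0.25 on the log2 scale. Limma called 0 of 44 at an adjusted p under 0.05, and at an unadjusted p under 0.05 it gave 3 higher (0.642% of tested genes) and 1 lower (1.28%). The lower one was Cldn6, a claudin of embryonic epithelia, at 2656, 2489 and 2462 in the Runx1-WT against 1554, 1804 and 1950.2 in the Runx1-null mice (log2 difference, -0.52 ± 0.14 SE). Each Runx1-null mouse was below every Runx1-WT mouse, unlike any of the claudins in the main list. St14 (matriptase), a membrane protease of epithelia that is known to support barrier formation, was at 2938, 2910.4 and 3298 in the Runx1-WT against 3725, 3537 and 4335 in the Runx1-null mice (log2 difference, 0.34 ± 0.12 SE). Its inhibitor Spint1 had a log2 difference of 0.24 ± 0.10 (SE), and the epithelial transcription factor Klf5 was at 3818, 4147 and 3652 in the Runx1-WT against 4796, 5191 and 4231 in the Runx1-null mice (log2 difference, 0.29 ± 0.11 SE). The genotypes did not overlap for St14 and Klf5, as for 2.08% of tested genes in that direction, nor for Cldn6 and Magi3 in the other (3.47%). For St14 Runx1-null mouse 3 was the highest of the 6 mice. For Klf5 it was the lowest Runx1-null mouse, and its 4231 lay closer to the highest Runx1-WT value (4147) than to the other Runx1-null values.

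Genes of the mesenchymal state, which oppose the epithelial program, mostly had log2 differences below 0. Of 12 listed 9 were tested, with 8 below 0 and a median log2 difference of -0.42, and 0 were called at an adjusted p under 0.05 in limma, with Zeb2 alone at an unadjusted p under 0.05. Zeb2, a repressor of Cdh1, read 204, 166 and 228 in the Runx1-WT against 125, 129 and 125 in the Runx1-null mice (log2 difference, -0.65 ± 0.24 SE), and the genotypes did not overlap, as for 3.47% of tested genes in that direction. Vim (vimentin) was at 4007, 3173 and 5887 in the Runx1-WT against 3261, 3074 and 2396 in the Runx1-null mice (log2 difference, -0.55 ± 0.24 SE). The fibroblast and endothelial markers also had log2 differences below 0, and the part of those cells in these values was not tested. Snai2 was at 89.9 to 133 in Runx1-WT and 81.2 to 154 in Runx1-null mice, and Snai1, Twist2 and Cdh2 were below the filter.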

How the data were processed

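RNA of sorted YFP+ luminal MECs of 6 mice was amplified and hybridized by the authors to 1 array each, and they normalized all arrays with dChip. The deposited values are linear intensities of 45101 probe sets. The dChip version and model are not given in the sources used here. Arrays hold no counts, so the number of arrays sets the precision. In the platform annotation 34958 probe sets had 1 gene symbol, 932 several and 9211 none.

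The deposited intensities were floored at their pooled 20th percentile (19.335) and then log2-transformed. Each gene was read from its brightest probe set. Genes were tested if that probe set had a mean intensity no lower than the 40th percentile of all probe sets (73.5), which left 12152. Limma 3.58.1 in R 4.3.3 was fitted over all 6 mice with genotype as the one term (lmFit, then eBayes with a mean-variance trend), and p-values were adjusted by Benjamini-Hochberg with 0.05 as the threshold. Single values were also compared by exact two-sided permutation tests. On simulated data 5 unchanged genes were called, and 93.5% of the intervals of the changed genes held the true difference.

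The members, the lists and the tests were chosen with earlier results of these data known, so lists are described by counts and medians and no list was tested. The methods speak of littermates without saying which mice they were. Replicate numbers follow the order of deposit. Values per mouse are given for 12 members fixed by name, for any member with groups apart or an unadjusted p under 0.05, for the highest and lowest difference of each role, and for up to 4 genes of other lists. Further genes were named after their values were seen. The alternatives changed the intensity filter (none, or the 60th percentile), the normalization (quantile or median scaling added), the floor (replaced by a pseudocount of 5.04), the mice (each left out once), the variance model, the probe set rule, the threshold (0.1) or the test (the methods' t-test), or added the animal number range as a block. A fit of the 4 mice with lower numbers was added after seeing the data.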

Additional observations from a re-analysis of the deposited data

How the results depend on the processing

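At an adjusted p under 0.05, 0 genes and 0 members were called under every alternative run. The unadjusted count over all genes ranged from 78 to 818 over the left-out mice and was 1866 in the 4 mice with lower numbers. Median scaling moved the median log2 difference of all tested genes from -0.02 to 0.07, that of the members to 0.15, of the transmembrane tight junction genes to 0.19 and of the adherens junction to 0.089. It also turned small differences above 0, to 0.072 in Tjp1, 0.015 in Pard3, 0.081 in Cdh1, 0.082 in Dsp, 0.086 in Cd24a and 0.041 in Muc1. The mean over probe sets gave -0.057 for Ctnna1, 0.0078 for Esrp2 and -0.083 for Grhl2, and the second brightest probe set 0.025 for Dsp, 0.12 for Esrp2 and -0.14 for Grhl2. In the mice with lower numbers the tight junction plaque median was 0.13, and the differences were -0.036 for Cldn4, 0.20 for Tjp3, -0.00082 for Ctnna1, 0.015 for Esrp2 and -0.024 for Epcam. Leaving out 1 mouse changed the sign of 12 of the 22 members for which it was computed, those named by the rule, whose values ranged from -0.095 to 0.103 for Cd24a, -0.053 to 0.019 for Cdh1, -0.075 to 0.38 for Cldn4, -0.55 to 0.036 for Cldn8, -0.14 to 0.061 for Dsp, -0.0063 to 0.073 for Epcam, -0.18 to 0.0029 for Esrp2, -0.22 to 0.16 for Muc1, -0.25 to 0.079 for Ocln, -0.16 to 0.0034 for Pard3, -0.067 to 0.030 for Tjp1 and -0.32 to 0.097 for Tjp3. The cause was not tested for any of these. The members' median was 0.04 to 0.08 over the left-out mice. No paired analysis was possible because the labels give no replicate number that the genotypes share. With the range of the animal numbers as a block instead, limma gave 305 genes and 0 members at an unadjusted p under 0.05.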
